A study of Mus musculus with 4 samples.

Results

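CREPT, the product of Rprd1b, was deleted in the intestinal stem cells of adult mice, and the RNA of the cells that remained was sequenced. The RNA levels of Rprd1b and of the proteins that work beside it on the tail of RNA polymerase II were followed here in 9 genes out of the 18436 in the table. They were chosen by name, with earlier results of these data known. The CREPT family was represented by Rprd1b, Rprd1a and Rprd2, and the phosphatases of the polymerase tail by Rpap2, Ssu72 and Ctdp1. Pcf11, Scaf4 and Scaf8 encode proteins that carry the same type of tail-binding domain as CREPT and take part in the control of termination. All 9 were above the limit on low values, a mean of at least 0.5 FPKM, that left 12621 genes for the test. FPKM divides the fragments of a gene by its transcript length and by the size of the library, so that the levels of different genes can be compared.

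The samples were Lgr5-GFP high cells, sorted for the strongest GFP signal from the intestine of C57BL/6 mice that carry GFP and a tamoxifen-inducible Cre recombinase in the Lgr5 gene. The Lgr5-WT group consisted of 2 mice with this Lgr5-EGFP-IRES-creERT2 allele and no floxed CREPT, and the Lgr5-CREPTKO group of 2 mice with the same allele and CREPT fl/fl. Every mouse of both groups was injected with tamoxifen, 1 mg daily over 5 days, and sorting took place on day 7, so tamoxifen, Cre and the reporter were shared by the controls. Cre and GFP were both driven from Lgr5, an allele that is silent in some crypts of adult mice. The study used male and female mice aged 6 to 8 weeks, and the sex of each animal sequenced is not given in the sources used here.

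RNA polymerase II carries a long tail of repeated heptads, the carboxy-terminal domain or CTD, on its largest subunit. Kinases phosphorylate the repeats as a gene is transcribed, and proteins with a CTD-interacting domain (CID) read the phosphorylated repeats and bring phosphatases, RNA processing factors and termination factors to the polymerase. Rprd1b and Rprd1a are CID proteins that associate with the phosphatase Rpap2. CREPT is also known as a partner of beta-catenin and TCF in Wnt target transcription, whereas P15RS, the product of Rprd1a, is known as an inhibitor of that pathway.

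Rprd1b lies at chr2:158028475-158078207 on the plus strand of GRCm38.p6 in the RefSeq annotation. The floxed exon 3 is at chr2:158043406-158043539 in the GENCODE annotation of that assembly and is present in 7 of the 8 annotated transcripts. It is shown because its loss defines the Lgr5-CREPTKO mice. In the first sequence, written 5′ to 3′, exon 3 is in capitals between the last 24 bases of exon 2 and the first 24 bases of exon 4, and in the second, exon 2 is joined to exon 4 and the capitals mark the first in-frame stop codon.
Rprd1b exon 3: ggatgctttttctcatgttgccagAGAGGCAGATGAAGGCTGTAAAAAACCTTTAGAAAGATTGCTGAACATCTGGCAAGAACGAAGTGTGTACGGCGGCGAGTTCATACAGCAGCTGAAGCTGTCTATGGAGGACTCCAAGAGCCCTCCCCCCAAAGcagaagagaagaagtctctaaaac
Rprd1b without exon 3: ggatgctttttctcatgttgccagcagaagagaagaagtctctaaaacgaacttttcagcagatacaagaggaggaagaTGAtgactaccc

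All 134 bases of exon 3 are coding and touch codons 94 to 139 of 325. The length is not a multiple of 3, so that the joined transcript would keep 93 codons and read 19 shifted codons before a stop codon in exon 4. The exon makes up 2.98% of the 4504 bases of the transcript Rprd1b-202. Gene-level FPKM counts reads from the whole transcript, and the deletion of exon 3 itself was therefore not measured by these values. A primer pair designed in the study to amplify CREPT places its forward primer inside exon 3 and its reverse primer in exon 4, with a product of 166 bases on the intact transcript. The forward primer is in capitals within exon 3 in the next line, and shows that such an assay and the gene-level FPKM read different stretches of the transcript.
Rprd1b exon 3 with the forward primer: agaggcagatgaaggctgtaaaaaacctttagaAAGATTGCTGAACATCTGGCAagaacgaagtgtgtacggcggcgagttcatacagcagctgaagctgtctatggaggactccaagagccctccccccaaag

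The libraries were alike in depth as far as the step that 1 read makes in small RNA genes shows it. This step ranged from 0.984 to 1.032 of that of Lgr5-WT mouse 1 in the other libraries. The FPKM values summed to 495758 and 499327 in Lgr5-WT and to 468830 and 473662 in Lgr5-CREPTKO, without overlap. Such a sum does not measure depth. Absolute depth is unknown. The labelled cell type was checked against its markers. The 8 Lgr5 stem cell markers summed to 6170 and 5976 FPKM in Lgr5-WT and to 6709 and 6494 FPKM in Lgr5-CREPTKO. Most of this sum was Olfm4, at 5076.9 and 4932 FPKM against 5350.9 and 5181 FPKM. All 8 had a positive log2 fold change, and none passed an adjusted p of 0.05 by limma. Lgr5 itself was at 47.67 and 37.7 FPKM against 52.04 and 60.1 FPKM. Markers of other cells were also present, and none was listed at 0 in all 4 mice. The 12 enteroendocrine markers summed to 210 and 226 FPKM against 75.7 and 102 FPKM. Of these 12, 11 were lower in Lgr5-CREPTKO, 6 of them at an adjusted p below 0.05 by limma. The 8 goblet markers summed to 1473 and 2457 FPKM against 809 and 941 FPKM. All 8 were lower, 1 of them past that test. No Paneth, tuft, enterocyte or immune and stromal marker passed that test. The 7 Paneth markers summed to 1438 and 1036 FPKM in Lgr5-WT and to 864 and 2580 FPKM in Lgr5-CREPTKO. Both extremes were thus Lgr5-CREPTKO mice. The 9 enterocyte markers summed to 508 and 639 FPKM against 394 and 638 FPKM. The 12 immune and stromal markers summed to 9.83 and 11.2 FPKM against 5.46 and 13.7 FPKM, and 5 of them were above the limit on low values. The 6 tuft markers tested were each lower in Lgr5-CREPTKO by the means, with sums of 24.9 and 49.4 FPKM in Lgr5-WT against 20.4 and 7.37 FPKM, without overlap. The part of these cells in the results below was not tested, and in such bulk samples fewer cells of a type and less RNA per cell cannot be told apart.

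The first question was how far the RNA of the deleted gene and of its closest relative was reduced. Rprd1b fell to 39.2% of its Lgr5-WT level, and Rprd1a, the closest relative of CREPT, whose gene was not targeted, fell to 29.8%. Rprd2, the third and largest protein of the family, did not pass the test. Both reductions left measurable RNA in each Lgr5-CREPTKO mouse. The level of each gene in each mouse is shown in the plot of FPKM by mouse.

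**Figure D1:**
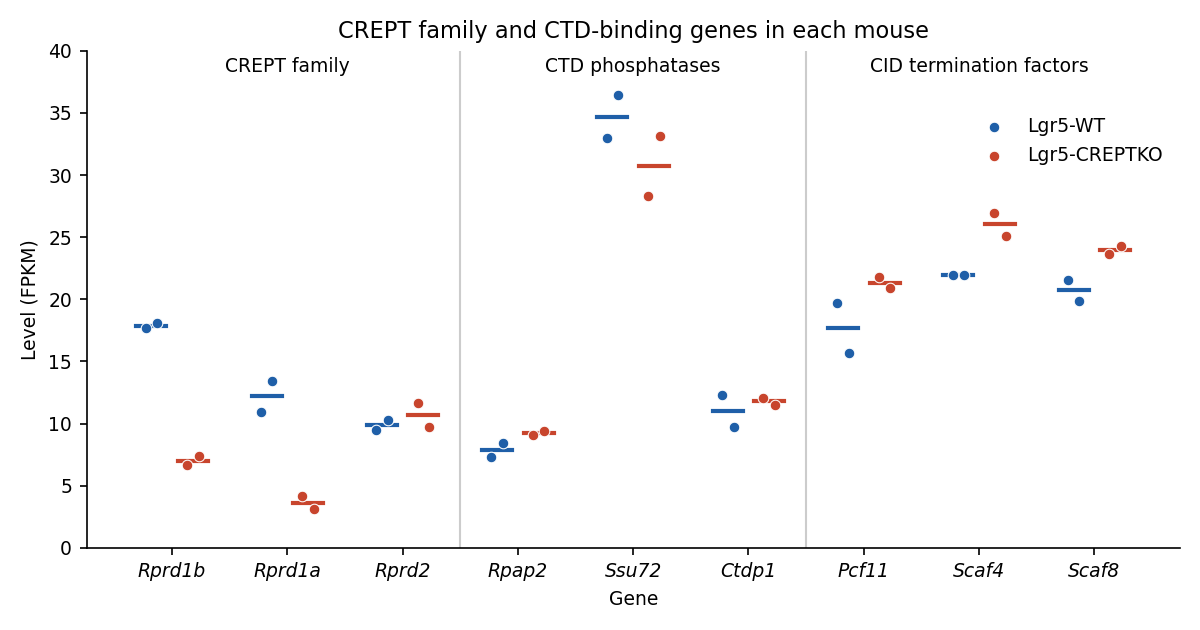
Level in FPKM (linear vertical axis) of the 9 genes, with 1 point per mouse, blue for Lgr5-WT and red for Lgr5-CREPTKO, and a bar at the mean of the 2 mice of each genotype. Rprd1b and Rprd1a are at 7.36 FPKM or less in the Lgr5-CREPTKO mice and at 10.95 FPKM or more in the Lgr5-WT mice, while the points of Rprd2, Ssu72 and Ctdp1 overlap between genotypes.

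Rprd1b was at 17.69 and 18.09 FPKM in Lgr5-WT and at 6.65 and 7.36 FPKM in Lgr5-CREPTKO. Both Lgr5-CREPTKO mice were far below both controls, and the 2 mice of each genotype lay close together. The means were 17.9 ± 0.283 FPKM (SD, n = 2) and 7.01 ± 0.502 FPKM (SD, n = 2), and the Lgr5-CREPTKO mice retained 37.2% and 41.1% of the Lgr5-WT mean. The log2 fold change on the log2(FPKM + 0.5) scale was -1.29 with a standard error of 0.0946 and a 95% confidence interval of -1.54 to -1.05 (limma, adjusted p = 0.028). By its unadjusted p, Rprd1b ranked 15 among the 12621 genes. With 1 mouse left out, the log2 fold change was -1.31 without Lgr5-WT mouse 1, -1.28 without Lgr5-WT mouse 2, -1.23 without Lgr5-CREPTKO mouse 1 and -1.36 without Lgr5-CREPTKO mouse 2. The corresponding adjusted p by limma was 0.221, 0.305, 0.199 and 0.144. Each of these fits has a single mouse in one genotype, which is assumed to vary like the other genotype, and no gene of the 12621 was called in any of them, so that they bear on the size of the change and not on its significance.

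Rprd1a, at chr18:24484960-24530235 on the minus strand, was at 10.95 and 13.45 FPKM in Lgr5-WT and at 4.18 and 3.09 FPKM in Lgr5-CREPTKO. Again the higher Lgr5-CREPTKO mouse was far below the lower control, although the spread within each genotype was wider than for Rprd1b. The means were 12.2 ± 1.77 FPKM (SD, n = 2) and 3.64 ± 0.771 FPKM (SD, n = 2). The log2 fold change was -1.62 with a standard error of 0.179 and a 95% confidence interval of -2.09 to -1.16 (limma, adjusted p = 0.0333), an interval that overlaps that of Rprd1b. Without Lgr5-WT mouse 1, Lgr5-WT mouse 2, Lgr5-CREPTKO mouse 1 and Lgr5-CREPTKO mouse 2 it was -1.77, -1.48, -1.82 and -1.43. The adjusted p was then 0.221, 0.305, 0.207 and 0.161 by limma, in fits where no gene was called.

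Whether reads of one relative were assigned to another was not tested. Among the 36 pairs of the 9 genes, no pair shared an exact stretch of 50 bases in the transcripts of the annotation. The only pair sharing an exact stretch of 25 bases was Rprd1b with Scaf8. Rprd1a shares no exonic bases with any other annotated gene. Rprd1b shares 130 exonic bases with 2010009K17Rik and 370 with Tgm2, a transglutaminase gene, both on the opposite strand, and whether the counting used strand is not given in the sources used here. Tgm2 was at 92.85 and 91.67 FPKM in Lgr5-WT and at 94.93 and 102.92 FPKM in Lgr5-CREPTKO, without the reduction of Rprd1b. The transcript 2010009K17Rik was at 3.02 and 2.18 FPKM against 1.2 and 0.62 FPKM, so the lower mice were the same as for Rprd1b. The part of reads from these overlapping genes in the Rprd1b values was not tested.

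Rprd2, at chr3:95759871-95819744 on the minus strand, was at 9.5 and 10.28 FPKM in Lgr5-WT and at 11.66 and 9.7 FPKM in Lgr5-CREPTKO. The second Lgr5-CREPTKO mouse lay between the controls. The log2 fold change was 0.10 with a 95% confidence interval of -0.21 to 0.42 (limma, adjusted p = 0.66), which leaves room for a change between 0.863-fold and 1.33-fold.

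The second question was how the RNA pool of the family was divided. The sum of the 3 genes was 38.14 and 41.82 FPKM in Lgr5-WT and 22.49 and 20.15 FPKM in Lgr5-CREPTKO, or 53.3% of the Lgr5-WT mean. The genotypes did not overlap, and the sum was 56.3% when each library was scaled to the same total, as TPM does. An exact two-sided permutation test of the sum gave p = 0.333, which is the smallest value that 2 mice against 2 allow. Rprd2 made up 24.9% and 24.6% of the sum in Lgr5-WT and 51.9% and 48.1% in Lgr5-CREPTKO. Rprd1b was the largest share in both controls, at 46.4% and 43.3%, and Rprd2 in both Lgr5-CREPTKO mice.

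**Figure D2:**
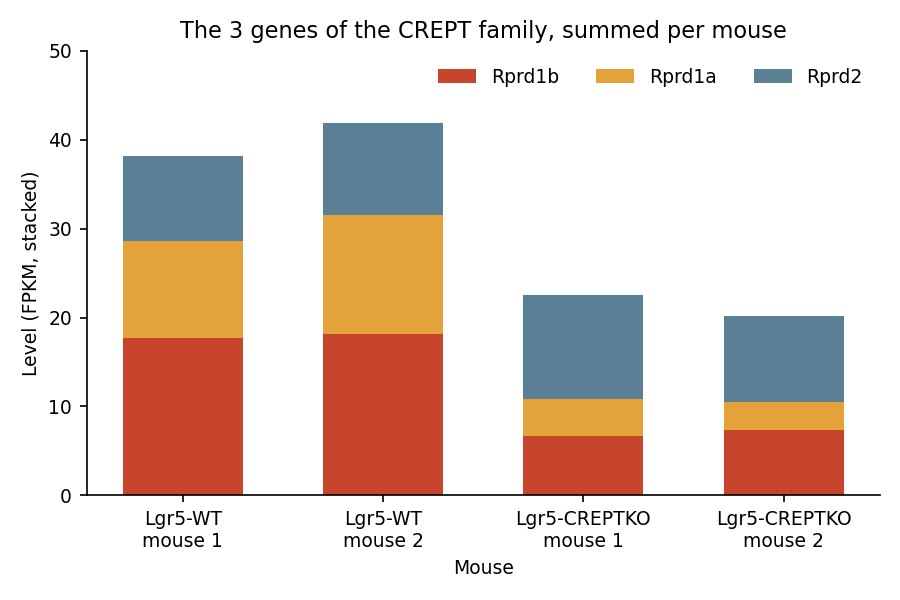
Stacked levels of Rprd1b, Rprd1a and Rprd2 in FPKM (vertical axis from 0) in each of the 4 mice. The total is 38.14 and 41.82 FPKM in Lgr5-WT and 22.49 and 20.15 FPKM in Lgr5-CREPTKO, with the Rprd2 segment between 9.5 and 11.66 FPKM in all of them.

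The ratio of Rprd1a to Rprd1b was 0.619 and 0.744 in the Lgr5-WT mice and 0.629 and 0.420 in the Lgr5-CREPTKO mice. One Lgr5-CREPTKO mouse fell between the controls and the other below them (exact two-sided permutation test, p = 0.667). With 2 mice against 2 this test cannot go below 0.333, so it does not show whether the ratio differed between the genotypes. The ratio of Rprd2 to the sum of Rprd1a and Rprd1b was 0.332 and 0.326 in Lgr5-WT and 1.08 and 0.928 in Lgr5-CREPTKO, without overlap (exact two-sided permutation test, p = 0.333). This ratio and the shares of the sum are computed from the levels already given for each gene. They are therefore no separate evidence of a change.

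Of the CTD phosphatases, Rpap2, which removes phosphate from the heptads and is brought to the polymerase with the CREPT family, lies at chr5:107597373-107661853 on the plus strand. It was at 7.32 and 8.44 FPKM in Lgr5-WT and at 9.1 and 9.4 FPKM in Lgr5-CREPTKO. Both Lgr5-CREPTKO values were above both controls by little (log2 fold change 0.22, 95% confidence interval -0.061 to 0.50, limma, adjusted p = 0.29). Rpap2 shares 276 exonic bases with Glmn on the opposite strand, which was at 6.85 and 4.73 FPKM against 5.96 and 5.99 FPKM and overlapped between genotypes.

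Ssu72 is a phosphatase of the cleavage and polyadenylation machinery and lies at chr4:155704815-155733879 on the plus strand. It was at 32.94 and 36.41 FPKM in Lgr5-WT and at 28.28 and 33.18 FPKM in Lgr5-CREPTKO, with overlap (log2 fold change -0.17, 95% confidence interval -0.45 to 0.11, limma, adjusted p = 0.388). Ctdp1, which encodes the phosphatase FCP1 that recycles the polymerase after transcription, lies at chr18:80407959-80478739 on the minus strand. It was at 12.27 and 9.74 FPKM in Lgr5-WT and at 12.09 and 11.52 FPKM in Lgr5-CREPTKO. Both of the latter lay between the controls (log2 fold change 0.11, 95% confidence interval -0.24 to 0.45, limma, adjusted p = 0.674). The sum of the 3 phosphatases in Lgr5-CREPTKO was 96.7% of that in Lgr5-WT, and 102% with TPM scaling.

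Pcf11, Scaf4 and Scaf8 were each higher in both Lgr5-CREPTKO mice than in both controls, and none passed the test. Both Lgr5-CREPTKO mice were above both controls in 25.6% of all genes tested. These genes were chosen with earlier results known, so setting them beside that share is no test of a common rise. Pcf11, a subunit of the cleavage factor that dismantles the elongation complex at the end of genes, lies at chr7:92643458-92670080 on the minus strand. It was at 19.7 and 15.64 FPKM in Lgr5-WT and at 21.78 and 20.88 FPKM in Lgr5-CREPTKO (log2 fold change 0.27, 95% confidence interval -0.056 to 0.60, limma, adjusted p = 0.266). The gap between its controls, 0.324 on the log2 scale, was wider than the difference between the means.

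Scaf4 and Scaf8 are related CID proteins that prevent the use of early polyadenylation sites. Scaf4, at chr16:90228950-90286140 on the minus strand, was at 21.95 and 21.92 FPKM in Lgr5-WT and at 26.98 and 25.07 FPKM in Lgr5-CREPTKO. It was the only one of the 7 genes other than Rprd1b and Rprd1a whose 95% confidence interval left out 0 (log2 fold change 0.24, interval 0.038 to 0.44), and its adjusted p by limma was 0.153. Scaf8, at chr17:3114972-3198859 on the plus strand, was at 21.58 and 19.9 FPKM in Lgr5-WT and at 23.61 and 24.3 FPKM in Lgr5-CREPTKO (log2 fold change 0.20, interval -0.0064 to 0.42, limma, adjusted p = 0.215). The sum of Pcf11, Scaf4 and Scaf8 was 63.23 and 57.46 FPKM in Lgr5-WT and 72.37 and 70.25 FPKM in Lgr5-CREPTKO, or 118% of the Lgr5-WT mean (exact two-sided permutation test, p = 0.333).

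The 9 genes include the deleted gene, Rprd1b, and were chosen with earlier results of these data known. The shares of all genes set beside their counts are therefore no test. Counted over the 9 genes, 2 fell at an adjusted p below 0.05, where 2.67% of all genes tested fell, and none rose, where 0.412% of all genes rose. Both were also past the threshold of the study, which adds an absolute log2 fold change above 1 and was met in this direction by 1.01% of all genes. At an unadjusted p below 0.05 by limma, 2 of the 9 were lower and 1, Scaf4, was higher, against 1916 lower and 1170 higher among the 12621 genes. In 2 of the 9 both Lgr5-CREPTKO mice were below both controls, as in 31.0% of all genes, and in 4 of the 9 both were above, as in 25.6% of all genes. For the 7 genes other than Rprd1b and Rprd1a the log2 fold changes ran from -0.17 to 0.27 with a median of 0.20, and the median of all genes was -0.014. Their 95% confidence limits differed by gene, the lowest being 0.730-fold for Ssu72 and the highest 1.52-fold for Pcf11.

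**Figure D3:**
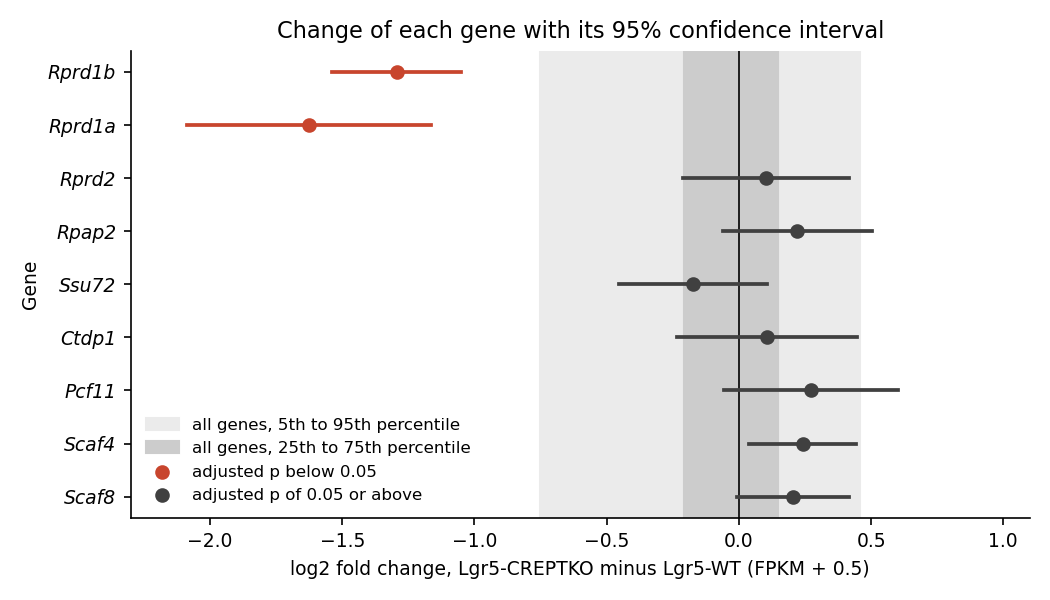
Log2 fold change (Lgr5-CREPTKO minus Lgr5-WT, on log2(FPKM + 0.5)) of each gene as a point, with its 95% confidence interval as a line, over grey bands for the 5th to 95th (-0.75 to 0.46) and 25th to 75th (-0.21 to 0.15) percentiles of all genes tested. The intervals of Rprd1b and Rprd1a lie wholly below the bands, and the other 7 points lie between -0.17 and 0.27.

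Fold changes in these libraries moved with transcript length, which touches the small differences above. From the shortest to the longest of 5 equal classes of genes, the median log2 fold change was -0.17, -0.077, -0.026, 0.029 and 0.12, across genes, which are not independent replicates. Rprd1b, Rprd1a, Ctdp1, Scaf4 and Scaf8 belong to class 4, Rprd2 and Pcf11 to the longest, Rpap2 to class 3 and Ssu72 to the shortest. With the trends in length and GC content removed from each library, an alternative chosen after seeing the data, the log2 fold change was -1.32 for Rprd1b (limma, adjusted p = 0.0285) and -1.59 for Rprd1a (limma, adjusted p = 0.0449). Ssu72, the only one of the other 7 below 0, was then at 0.021, and Rprd2 at -0.027. The values of Rpap2, Pcf11, Scaf4 and Scaf8 were 0.30, 0.25, 0.20 and 0.17.

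The order of the levels differed between the genotypes mainly through Rprd1b and Rprd1a. In Lgr5-WT the mean FPKM fell in the order Ssu72 (34.7), Scaf4 (21.9), Scaf8 (20.7), Rprd1b (17.9), Pcf11 (17.7), Rprd1a (12.2), Ctdp1 (11.0), Rprd2 (9.89) and Rpap2 (7.88). The ranges of the mice overlapped for the neighbours Rprd1b and Pcf11, Rprd1a and Ctdp1, and Ctdp1 and Rprd2, whose order is thus not distinguishable. Where the ranges of neighbours stayed apart, their order was not tested. In Lgr5-CREPTKO the order was Ssu72 (30.7), Scaf4 (26.02), Scaf8 (23.95), Pcf11 (21.3), Ctdp1 (11.8), Rprd2 (10.7), Rpap2 (9.25), Rprd1b (7.01) and Rprd1a (3.64), with overlap between Ctdp1 and Rprd2 only. Rprd1b and Rprd1a thereby became the lowest of the 9. Over the 4 mice, Ssu72 was the highest of the 9, with a mean level above that of 79.7% of the genes tested, and Rprd1b stood at 51.9% and Rprd1a at 39.0%.

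**Figure D4:**
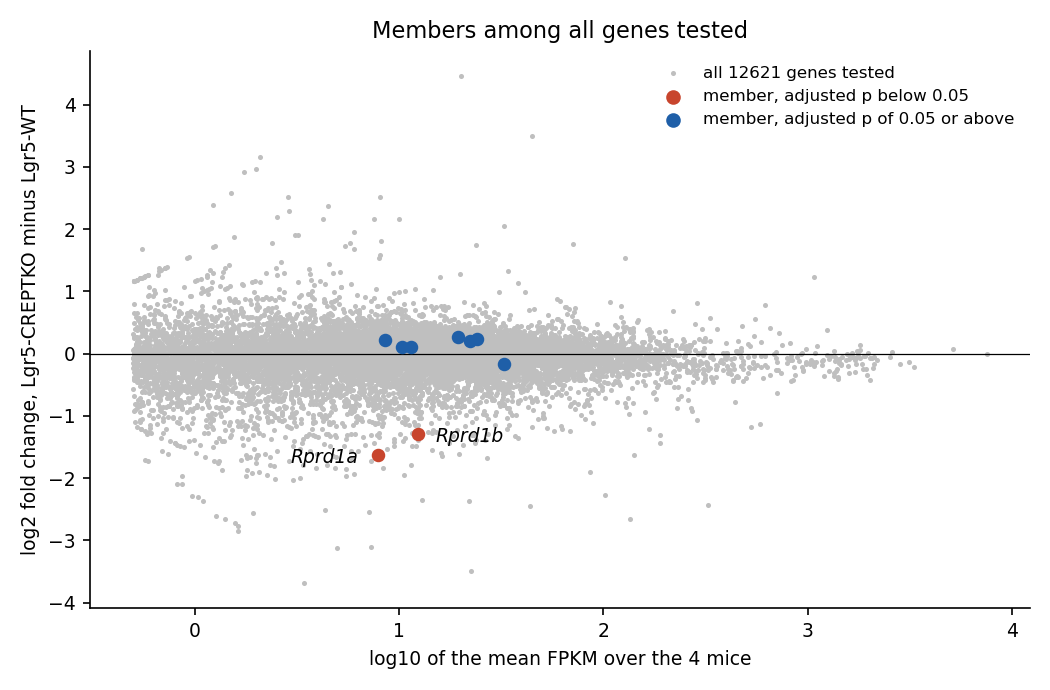
Log2 fold change (vertical axis, Lgr5-CREPTKO minus Lgr5-WT) against the log10 of the mean FPKM over the 4 mice for all 12621 genes tested (grey), with the 9 genes in red where the adjusted p was below 0.05 and in blue otherwise. Rprd1b (-1.29) and Rprd1a (-1.62) stand at ranks 156 and 70 from the lowest fold change.

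The genes whose profile over the 4 mice was closest to that of Rprd1b were found by the Euclidean distance between log2(FPKM + 0.5) values centred on each gene's own mean. The 5 closest were Rhbdd2 (distance 0.0401), Wbp1 (0.0824), Mrpl17 (0.0954), 1810009A15Rik (0.102) and Cops6 (0.105). Rhbdd2 was at 6.43 and 6.53 FPKM in Lgr5-WT and at 2.27 and 2.43 FPKM in Lgr5-CREPTKO, and Cops6, a subunit of the COP9 signalosome, at 87.63 and 87.86 FPKM against 36.94 and 38.25 FPKM. Rprd1a was at a distance of 0.525 and ranked 303 among the other genes. The remaining 7 were at 1.12 or more.

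To see the 9 genes in their pathway, 58 genes in 7 lists around the CTD were read from the same fit, of which 57 were above the limit on low values. Of these 57, none passed an adjusted p of 0.05 by limma in either direction, and without adjustment the counts at p below 0.05 were 9 lower (15.8%) and 5 higher (8.77%), beside 15.2% and 9.27% of all genes tested. Of the 9 lower, 6 were Pol II subunits. These counts hold for the genes listed only. U2surp, a further CID protein, was at 19.5 and 16 FPKM in Lgr5-WT and at 18.57 and 19.68 FPKM in Lgr5-CREPTKO, with overlap. The plot of fold changes by list shows the spread of each.

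**Figure D5:**
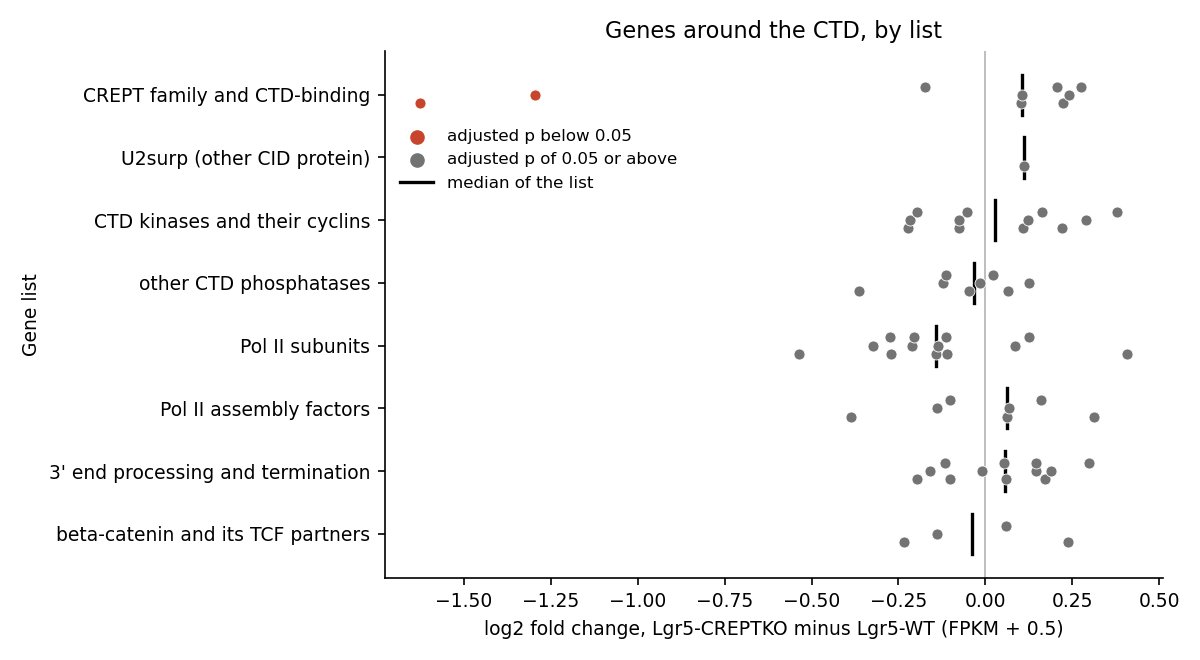
Log2 fold change (horizontal axis, Lgr5-CREPTKO minus Lgr5-WT) of each gene tested, as a point, in the 9 genes and in 7 lists around the CTD, with a black bar at the median of each list and red points for an adjusted p below 0.05. The red points are Rprd1a (-1.62) and Rprd1b (-1.29), and the genes of the lists lie between -0.53 and 0.41.

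The list of other CTD phosphatases held 8 genes, with a CTD isomerase among them. Of these 8, 5 were lower and 3 higher, with a median of -0.032. This median changed sign under TPM scaling (0.044), quantile (0.0043) and upper quartile scaling (0.0058) and without Lgr5-CREPTKO mouse 2 (0.018). Ctdsp1, which encodes a small CTD phosphatase, was at 56.69 and 62.38 FPKM in Lgr5-WT and at 44.88 and 47.47 FPKM in Lgr5-CREPTKO, without overlap (log2 fold change -0.36, limma, adjusted p = 0.0846). Ctdsp2, of the same family, was at 0.13 and Ppp1cb, a catalytic subunit of protein phosphatase 1, at -0.12 (limma, adjusted p = 0.514 and 0.36).

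Among the 12 CTD kinases and their cyclins, 6 were lower and 6 higher, with a median of 0.027 (-0.014 without Lgr5-CREPTKO mouse 2). Cdk12, the kinase of elongating polymerase, was at 10.46 and 8.62 FPKM in Lgr5-WT and at 13.5 and 11.57 FPKM in Lgr5-CREPTKO (log2 fold change 0.38, limma, adjusted p = 0.181). Ccnt1, a cyclin of the elongation factor P-TEFb, had a log2 fold change of 0.29 and Ccnh, the cyclin of the kinase of TFIIH, one of -0.22 (limma, adjusted p = 0.232 and 0.177). Kinase genes were therefore found on both sides of 0 and none passed the test.

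Of the 13 Pol II subunits, 10 were lower and 3 higher, with a median of -0.14, and none passed the test after adjustment. At an unadjusted p below 0.05 by limma, 6 were lower and 1 higher. Both Lgr5-CREPTKO mice were below both controls in 9 of the 13 and above them in 3, beside 31.0% and 25.6% of all genes. Polr2a, the subunit that carries the CTD, was at 46.93 and 48.67 FPKM in Lgr5-WT and at 67.39 and 59.95 FPKM in Lgr5-CREPTKO (log2 fold change 0.41, limma, adjusted p = 0.0732). The small shared subunits Polr2k and Polr2l were at -0.53 and -0.32 (limma, adjusted p = 0.0935 and 0.0962). The median of this list turned to 0.061 when the trends in length and GC content were removed.

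Of the 7 Pol II assembly factors, 3 were lower and 4 higher, with a median of 0.061. Pih1d1, a cofactor of the chaperone complex R2TP, was at -0.39, Rpap1, which takes part in nuclear import of the polymerase, at 0.31 and the prefoldin-like Uri1 at 0.16 (limma, adjusted p = 0.0683, 0.105 and 0.285). Of the 12 direct partners in 3′ end processing and termination, 5 were lower and 7 higher, with a median of 0.056. Sympk, the scaffold of the cleavage machinery, was at 51.26 and 52.99 FPKM in Lgr5-WT and at 64.27 and 64.03 FPKM in Lgr5-CREPTKO (log2 fold change 0.30, limma, adjusted p = 0.0823). The cleavage stimulation factor gene Cstf3 was at -0.20 and Wdr33, which encodes a subunit that takes part in recognition of the polyadenylation signal, at 0.19 (limma, adjusted p = 0.376 and 0.231). These partners were spread on both sides of 0.

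Beta-catenin and its TCF partners were listed because CREPT and P15RS are known to act with them. Of 5 genes, 4 were tested, since Lef1 was below the limit on low values, and 2 were lower and 2 higher, with a median of -0.039. Tcf7 was at 12.37 and 9.84 FPKM in Lgr5-WT and at 12.47 and 13.77 FPKM in Lgr5-CREPTKO, and Tcf7l2 at 9.62 and 11.22 FPKM against 8.92 and 8.61 FPKM. Neither these nor Ctnnbip1, an inhibitor of the beta-catenin and TCF complex, at -0.14, passed the test (limma, adjusted p = 0.352, 0.273 and 0.386).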

How the data were processed

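RNA of sorted Lgr5-GFP high cells from 2 Lgr5-WT and 2 Lgr5-CREPTKO mice was sequenced on the BGISEQ-500. The authors deposited FPKM values per gene symbol, after mapping with Bowtie2 to transcripts of GRCm38.p6 and quantification with RSEM by the RNA-seq methods of the study, which name crypts and intestines. The submitters' processing notes also name HISAT and mm10. Versions and strandedness are not given in the sources used here. FPKM is relative to the total of a library, and without counts the read depth is unknown. The study's count model could not be used on FPKM.

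Genes averaging 0.5 FPKM or more across the 4 mice were tested as log2(FPKM + 0.5) with limma 3.58.1 in R 4.3.3 (lmFit, eBayes with intensity trend) and Benjamini-Hochberg adjustment over 12621 genes. Changes of weakly expressed genes are understated on this scale. A gene was called at an adjusted p below 0.05. The script was tested on simulated data. Single sums and ratios were tested by exact permutation with scipy 1.17.1. The members and lists were chosen with earlier results of these data known. All 9 members were named, and in each list the called genes or, where fewer than 3 were called, the 3 with the largest absolute change, with the first marker of a marker list and the 5 genes closest to Rprd1b in profile. The mice are separate animals, numbered 1 and 2 by the labels. No pairing of same-numbered mice is stated in the sources used here, and the main fit treated them as unpaired. All 9 symbols matched RefSeq. GENCODE M21 supplied exons, GC content and transcript lengths, the latter for 96.5% of the genes tested. The primer sequences are those of the study's primer list. The pseudocount, filter, scaling, trend, variance moderation, small RNA genes, replicate block and each mouse were varied, and a correction for length and GC content was added after seeing the data. Some genes of the lists are not reported here.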

Additional observations from a re-analysis of the deposited data

How the results depend on the processing

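The direction of Rprd1b and Rprd1a was kept in all 17 alternative settings, and the log2 fold change ran from -1.36 to -1.23 for Rprd1b and from -1.82 to -1.43 for Rprd1a. Both were below an adjusted p of 0.05 (limma) in 10 of the 13 settings that kept all mice, and in none of the 4 that left out a mouse, where no gene was called. The adjusted p of Rprd1b and Rprd1a was 0.116 and 0.128 with no filter, 0.0623 and 0.0657 with no intensity trend, and 0.051 and 0.0807 with the replicate block together with the length and GC correction, so that 0 members were called there. The other 7 members passed in none. Of 153 member values 133 kept direction and side of the threshold, 14 lost the call and 6 reversed, which were Ctdp1 without Lgr5-WT mouse 2 (-0.054, and up to 0.26 with another mouse left out), Rprd2 without Lgr5-CREPTKO mouse 1 (-0.026, and up to 0.23), and Rprd2 (-0.027) and Ssu72 (0.021) with the length and GC correction, with and without the block. Of the list medians 14 changed sign, which were the other CTD phosphatases under TPM (0.044), quantile (0.0043) and upper quartile scaling (0.0058) and without Lgr5-CREPTKO mouse 2 (0.018, and down to -0.15 with another mouse left out), the CTD kinases without that mouse (-0.014, and up to 0.11), beta-catenin and its TCF partners under TPM (0.037), quantile normalisation (0.035) and the length and GC correction with and without the block (0.015), the Pol II subunits under that correction with and without the block (0.061), U2surp without Lgr5-WT mouse 2 (-0.028, and up to 0.25), and the Pol II assembly factors without Lgr5-WT mouse 2 (-0.056) or Lgr5-CREPTKO mouse 2 (-0.058, and up to 0.14). Over all genes, 337 were lower and 52 higher at an adjusted p below 0.05 (13.4% higher), and 128 and 16 with an absolute log2 fold change above 1 as well. Scaled to TPM, 243 were lower and 85 higher (25.9% higher). Robust moderation gave 525 and 126, and leaving out small RNA genes gave 487 and 109. No intensity trend gave 4 and 0 by either rule, and no filter 0 and 0 (2250 and 1320 at an unadjusted p below 0.05). Leaving out any mouse gave 0 to 0 calls by limma for all genes, members and lists, with 1177 to 1587 lower and 634 to 916 higher at an unadjusted p below 0.05. The replicate block gave 168 and 15, and 101 and 8 with the fold threshold. The differences of same-numbered mice correlated at -0.0266 across genes, and the block added to the main fit changed no call of a member. The length and GC correction gave 109 and 13, and 54 and 6 with the fold threshold. With the block as well it gave 5 and 0 by either rule. No gene of the lists was called in any of the 17 settings. The causes were not tested. No setting gave an absolute depth, and 2 mice per genotype limit each of these tests.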
